A study of Mus musculus with 8 samples.

Results

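The genes described here are 37 genes of fatty acid uptake and mitochondrial beta-oxidation, followed step by step from the capillary wall to the electron transfer flavoproteins. They were taken by symbol from a list, out of 55385 genes in the count table, and each symbol was found once. The left ventricle was sampled from male C57BL6 mice in 2 groups of 4 libraries. Mst1-TG mice carry a transgene for Mst1, a kinase of the Hippo pathway, driven by the alpha-myosin heavy chain promoter, which limits the transgene to cardiomyocytes, and they develop dilated cardiomyopathy. WT mice are their littermates without the transgene. The protocols also mention mice lacking galectin-3, but the 8 libraries are labelled only Mst1-TG or WT. The series' design text gives an age of 3 weeks, the labels' extraction protocol says 3 months, and the labels' husbandry text names mice of 3 weeks and of 5.5 months, so the age is uncertain.

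Long-chain fatty acids are the main fuel of the adult heart. Lipoprotein lipase frees them from circulating triglyceride at the capillary wall, CD36 and fatty acid transport proteins bring them into the cell, and binding proteins carry them in the cytosol. Acyl-CoA synthetases couple them to coenzyme A, the carnitine shuttle moves them into the mitochondrion, and each turn of beta-oxidation then shortens the chain by acetyl-CoA while passing electrons to FAD and NAD. Electrons from the FAD-linked step reach the respiratory chain through the electron transfer flavoproteins.

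Each library held 21193536 to 23809256 estimated counts. Levels are given as CPM, counts per 1000000 counts of a library size scaled by TMM (trimmed mean of M values), as mean ± SD with n = 4 libraries per group. A gene is said to have fallen or risen only where edgeR's quasi-likelihood test gave a Benjamini-Hochberg adjusted p below 0.05 over all 15314 genes tested. Stk4, the mouse gene for Mst1, was at 25.2 to 29.6 CPM in WT and at 1449 to 1747 CPM in Mst1-TG. WT 4 stood apart on the second principal component, which held 8.89% of the variance. Mitochondrially encoded genes took 22.9% ± 1.11 (SD, n = 4) of counts in WT and 13.6% ± 0.677 in Mst1-TG. Of 7 cardiomyocyte markers 5 fell and 2 did not pass, and their summed level ran from 37775 to 45595 CPM in WT and from 25805 to 34822 CPM in Mst1-TG. All 7 fibroblast markers rose, with sums of 1669 to 2038 CPM in WT and 4575 to 6088 CPM in Mst1-TG. In bulk tissue, fewer cells of a type and less RNA per cell cannot be told apart. The part of the mitochondrial share and of these markers in the changes below was not tested.

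Most of the pathway was lower in Mst1-TG hearts. Of the 37 genes, 36 passed the filter on low counts, 31 of them fell, none rose and 5 did not pass the test. Over all genes tested, 21.1% fell and 21.2% rose. The median log2 fold change of the 36 was -1.01, against 0.01 for all genes tested. In 18 of the 36 the fall was at least 2-fold, against 4.60% of all genes tested. The 4 Mst1-TG libraries lay wholly below the 4 WT libraries in 31 of the 36, which were the genes that fell, while 20.1% of all genes tested were separated in that direction. The exceptions that did not pass were Angptl4, Fabp4, Fabp5, Cpt1a and Acad10. DESeq2 also called 31 lower and none higher. Vnn1, a pantetheinase that recycles the precursor of coenzyme A, was not tested, because it had 0 to 6 counts per WT library and 1 to 8 per Mst1-TG library.

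**Figure D1:**
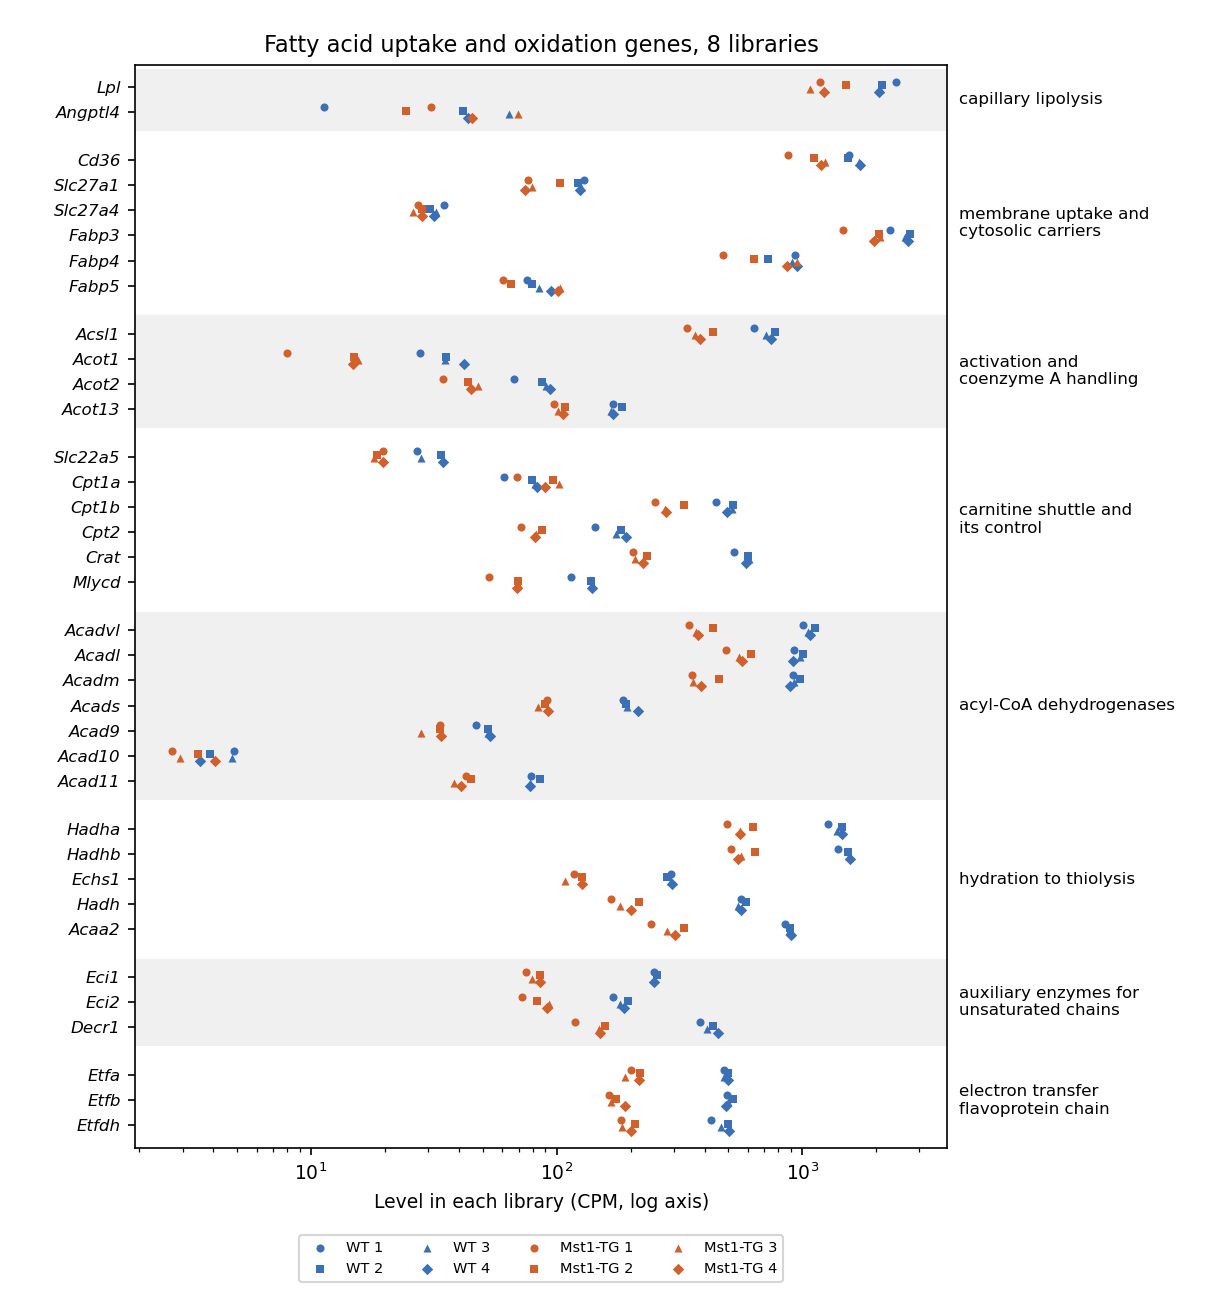
Level of each of the 36 tested genes in each library (x axis, CPM, log axis), grouped by step from top to bottom; blue symbols are the 4 WT and orange the 4 Mst1-TG libraries. From the acyl-CoA dehydrogenases down, orange lies left of blue for every gene except Acad10, whereas Angptl4, Fabp4, Fabp5 and Cpt1a overlap.

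The regulatory sequence of these genes was looked at for letters bound by factors of the pathways concerned. RefSeq promoters (GRCm38.p6, 250 bases before to 50 after the gene's start) were found for 26 of the 37 genes, as 29 promoters. RefSeq's start can differ from the GENCODE start given for a gene elsewhere in the text: for Cpt1a and Slc27a1 the RefSeq window lies inside the GENCODE gene. The TEAD factors, through which the Hippo pathway acts on transcription with YAP and TAZ, bind GGAATG. On either strand, that motif stood in 4 of the 29 promoters (13.8%), against 14.7% of all 32851 promoters, so the share was near the background. Nuclear receptor letters were rarer. A direct repeat of AGGNCA with a spacer of 1 base, read by PPAR and RXR, was in 0 of the 29 and in 0.381% of all promoters, and TNAAGGTCA, read by the estrogen-related receptors, was in 0 of the 29 and in 1.28%. No match says only that these letters are not in this window. Since only GGAATG was found, no matches of different motifs overlapped.

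The stretches around the 4 TEAD matches are printed because they belong to genes that behaved differently: Slc27a1, Acsl1 and Etfb fell while Cpt1a did not. Each is read 5′ to 3′ on the gene's own strand, with the match in capitals and up to 40 bases on each side. In GRCm38.p6 they lie on the forward strand at chr8:71569347-71569430 (Slc27a1), chr8:46470859-46470944 (Acsl1), chr19:3323109-3323194 (Cpt1a) and chr7:43443886-43443971 (Etfb).
Slc27a1: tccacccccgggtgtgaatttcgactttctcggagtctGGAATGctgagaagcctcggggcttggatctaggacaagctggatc
Acsl1: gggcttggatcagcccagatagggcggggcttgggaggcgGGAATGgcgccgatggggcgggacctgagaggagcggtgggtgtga
Cpt1a: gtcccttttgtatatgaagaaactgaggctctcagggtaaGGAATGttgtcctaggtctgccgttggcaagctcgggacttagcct
Etfb: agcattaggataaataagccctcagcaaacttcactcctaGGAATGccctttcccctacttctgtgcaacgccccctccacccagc
The match stands at the same letters in a gene that fell most deeply among the 4 and in the one that did not fall, and whether any factor binds there was not measured.

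At the capillary wall the enzyme fell and its inhibitor did not pass. Lpl, lipoprotein lipase, was at 2402, 2105, 2078 and 2059 CPM in WT 1 to 4 and at 1183, 1507, 1073 and 1219.9 CPM in Mst1-TG 1 to 4. Every Mst1-TG library was below every WT library, with a log2 fold change of -0.79 ± 0.10 (SE, edgeR adjusted p = 3.9e-05). Lpl lies on chromosome 8 from 68880491 to 68907448 in GENCODE M21 (GRCm38). Angptl4, a secreted protein that inactivates lipoprotein lipase and responds to fasting and PPAR signalling, ranged from 11.3 CPM in WT 1 to 63.9 CPM in WT 3 and from 24.3 CPM in Mst1-TG 2 to 69.6 CPM in Mst1-TG 3. The groups overlapped over most of their range, and the SE was wide (0.08 ± 0.56, edgeR adjusted p = 0.924). Without Mst1-TG 3 the value was -0.26 and without WT 1 it was -0.23, neither of which passed.

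Uptake and cytosolic transport changed less. Of the 6 genes of this step 4 fell and 2 did not pass, with a median log2 fold change of -0.36. Cd36, the main fatty acid translocase of the muscle membrane, was at 1546, 1534, 1695 and 1713 CPM in WT and at 875, 1117, 1239.6 and 1187 CPM in Mst1-TG (-0.55 ± 0.10 SE, edgeR adjusted p = 7.2e-04). The groups did not overlap, and Mst1-TG 1 was the lowest library. Slc27a1 (FATP1), a transport protein that also activates fatty acids, went from 125 ± 3.05 to 83.3 ± 13.2 CPM (SD, n = 4; -0.59 ± 0.09). Its relative Slc27a4 (FATP4) went from 32.3 ± 1.79 to 27.5 ± 1.18 CPM (-0.23 ± 0.07, edgeR adjusted p = 0.013), the smallest of the 31 falls.

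The cytosolic binding proteins differed by isoform. Fabp3, the heart form and the most abundant of the 37 per kilobase, was at 2282, 2749.9, 2628 and 2689 CPM in WT and at 1461, 2057, 2071 and 1963 CPM in Mst1-TG (-0.45 ± 0.11 SE, edgeR adjusted p = 5.0e-03). Its highest Mst1-TG library stayed below its lowest WT library, WT 1. Fabp4, which in the heart is known from capillary endothelium and in fat from adipocytes, was at 938, 728, 906 and 955 CPM in WT and at 476, 634, 951 and 863 CPM in Mst1-TG, so the groups overlapped (-0.27 ± 0.20, edgeR adjusted p = 0.312). Without Mst1-TG 1 the Fabp4 value was -0.11 and without Mst1-TG 3 it was -0.42, neither of which passed. Fabp5, also an endothelial and macrophage form, had mean levels of 83.6 ± 8.49 and 82.5 ± 22.8 CPM in WT and Mst1-TG (SD, n = 4; -0.02 ± 0.18, edgeR adjusted p = 0.948). In both Fabp4 and Fabp5, Mst1-TG 1 and 2 were the low libraries and Mst1-TG 3 and 4 the high ones. The summed level of 7 endothelial markers followed the same order, at 1248, 1416, 1806 and 1657 CPM in Mst1-TG 1 to 4. Cd36 had this order in Mst1-TG as well. In WT 1 to 4 the sums were 1923, 1667, 1891 and 2099.9 CPM. Fabp4 had the order of these WT sums, but Fabp5 did not, since WT 1 was its lowest WT library. Of the 7 endothelial markers 3 fell and 4 did not pass. The 7 macrophage markers all failed to pass, with sums of 337 to 455 CPM in WT and 354 to 488 CPM in Mst1-TG. Adipocyte markers were close to 0, with sums of 1.14 to 15.6 CPM in WT and 0.173 to 16.2 CPM in Mst1-TG, and 6 of the 7 were too low to test.

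Activation and the handling of coenzyme A esters fell in all 4 tested genes. Acsl1, the acyl-CoA synthetase of heart muscle, was at 633, 771, 713 and 744 CPM in WT and at 339.5, 431, 364 and 383 CPM in Mst1-TG (-0.91 ± 0.09 SE, edgeR adjusted p = 2.8e-06). The thioesterases, which split acyl-CoA back into fatty acid and coenzyme A, fell as well. Cytosolic Acot1 had 27.7, 35.4, 35 and 42.1 CPM in WT and 7.99, 15.0, 15.5 and 14.8 CPM in Mst1-TG (-1.40 ± 0.20, edgeR adjusted p = 4.0e-04), the deepest of this step. Its mitochondrial relative Acot2 went from 84.8 ± 12.2 to 42.7 ± 5.69 CPM (SD, n = 4; -0.99 ± 0.12), and the unrelated Acot13 from 173 ± 8.03 to 103 ± 5.05 CPM (-0.74 ± 0.06). Acot1 and Acot2 are close copies that lie 15616 bases apart on chromosome 12, so the division of their reads is uncertain.

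In the carnitine shuttle 5 of 6 genes fell, and the exception was an isoform of the entry enzyme. Cpt1b, the muscle form of carnitine palmitoyltransferase 1, which makes acylcarnitine at the outer membrane, was at 446, 522, 518 and 493 CPM in WT and at 251, 329.8, 276 and 278 CPM in Mst1-TG. All Mst1-TG libraries were below all WT libraries (-0.80 ± 0.09 SE, edgeR adjusted p = 9.2e-06), but scaled to the cardiomyocyte markers the value was -0.27 and did not pass (edgeR adjusted p = 0.057). Cpt1a, the form of liver and of the fetal heart, was at 60.8, 79.4, 81.6 and 83.5 CPM in WT and at 68.7, 96.5, 102 and 89.7 CPM in Mst1-TG. These groups overlapped through WT 1 and Mst1-TG 1, the lowest library of each, and the difference did not pass (0.23 ± 0.13, edgeR adjusted p = 0.195). Leaving out 1 library gave 0.13 (without WT 1, edgeR adjusted p = 0.43) to 0.33 (without Mst1-TG 1, adjusted p = 0.021). It passed as a rise only in the latter of these 8 fits, and also without a count filter (0.23, edgeR adjusted p = 0.013) and when scaled by library totals alone (0.51, adjusted p = 8.7e-03). Cpt1b lies on chromosome 15 from 89416405 to 89425863 and Cpt1a on chromosome 19 from 3322334 to 3385733 (GENCODE M21, GRCm38).

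The inner-membrane partner Cpt2, which returns the acyl group to coenzyme A, went from 173 ± 21.1 to 80.5 ± 6.48 CPM (SD, n = 4; -1.10 ± 0.09 SE, edgeR adjusted p = 7.0e-07). Crat, which buffers acetyl groups as acetylcarnitine, was at 527, 603, 606 and 588 CPM in WT and at 205, 233, 209 and 224 CPM in Mst1-TG (-1.42 ± 0.07, edgeR adjusted p = 2.4e-08), the largest fall of this step. The carnitine importer Slc22a5 (OCTN2) went from 30.8 ± 3.94 to 19.0 ± 0.78 CPM (-0.69 ± 0.09). Mlycd, which destroys malonyl-CoA, the inhibitor of carnitine palmitoyltransferase 1, went from 133 ± 12.2 to 65.4 ± 8.22 CPM (-1.02 ± 0.10). WT 1 and Mst1-TG 1 were the lowest libraries of their groups in Cpt2, Crat and Mlycd.

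Beta-oxidation opens with the acyl-CoA dehydrogenases, of which 6 of 7 fell. The very-long-chain enzyme Acadvl was at 1003, 1126, 1059 and 1078 CPM in WT and at 345, 433, 368 and 377 CPM in Mst1-TG, a 2.80-fold fall (log2 -1.49 ± 0.08 SE, edgeR adjusted p = 3.7e-08). The long-chain enzyme Acadl was at 924, 1006, 981 and 913 CPM in WT and at 491, 618, 551 and 566 CPM in Mst1-TG, a 1.72-fold fall (-0.78 ± 0.08, edgeR adjusted p = 5.0e-06) that did not pass when scaled to the cardiomyocyte markers (-0.24, adjusted p = 0.077). Acadm, for medium chains, went from 928 ± 35.9 to 389.7 ± 48.9 CPM (SD, n = 4; -1.25 ± 0.09), and Acads, for short chains, from 196 ± 12.2 to 89.2 ± 3.80 CPM (-1.14 ± 0.07). The groups were separated in each of these 4 enzymes. Acad11, which acts on longer chains, went from 80.0 ± 3.68 to 41.7 ± 2.78 CPM (-0.94 ± 0.07), and Acad9, better known as an assembly factor of complex I, from 51.3 ± 2.99 to 32.1 ± 2.78 CPM (-0.68 ± 0.08). Acad10 was scarce, at 4.26 ± 0.657 and 3.29 ± 0.597 CPM, with overlapping groups (-0.37 ± 0.18, edgeR adjusted p = 0.111).

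The reactions from hydration to thiolysis fell in all 5 genes, each by more than 2-fold, with a median of -1.42. Hadha and Hadhb encode the subunits of the mitochondrial trifunctional protein, which carries long chains through these reactions. Hadha was at 1273, 1447, 1387 and 1452 CPM in WT and at 495, 632, 559 and 557 CPM in Mst1-TG (-1.31 ± 0.09 SE, edgeR adjusted p = 1.0e-07). Hadhb was at 1398, 1532, 1548 and 1558 CPM in WT and at 513, 639, 565 and 547 CPM in Mst1-TG (-1.42 ± 0.08, edgeR adjusted p = 4.9e-08). In both, Mst1-TG 1 was the lowest and Mst1-TG 2 the highest transgenic library. The genes stand head to head on chromosome 5, Hadha from 30118304 to 30155162 on the reverse strand and Hadhb from 30155248 to 30184593 on the forward strand, with 85 bases between them (GENCODE M21, GRCm38).

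For shorter chains the soluble enzymes fell to a similar extent. Echs1, the short-chain hydratase, went from 290.2 ± 5.73 to 119.9 ± 9.13 CPM (SD, n = 4; -1.28 ± 0.07 SE, edgeR adjusted p = 2.9e-08). Hadh, the hydroxyacyl-CoA dehydrogenase, was at 565, 590, 546 and 563 CPM in WT and at 167, 216, 180.3 and 199.8 CPM in Mst1-TG (-1.57 ± 0.08). Acaa2, the thiolase that releases acetyl-CoA, went from 880.3 ± 23.6 to 289.6 ± 37.8 CPM (-1.60 ± 0.09), a 3.04-fold fall with no overlap. WT libraries of Echs1, Hadh and Acaa2 lay close together, and no Mst1-TG library reached them.

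Enzymes that make unsaturated chains fit for the cycle fell in all 3 cases. Eci1, which shifts double bonds, was at 249, 256, 248 and 248 CPM in WT and at 74.9, 85.5, 79.1 and 85.3 CPM in Mst1-TG (-1.62 ± 0.06 SE, edgeR adjusted p = 2.9e-09). This was the deepest fall of the 37 genes, 3.08-fold. Decr1, the dienoyl-CoA reductase, was at 385, 433, 411 and 452 CPM in WT and at 119, 157, 149 and 149.5 CPM in Mst1-TG (-1.55 ± 0.09, edgeR adjusted p = 4.9e-08). Eci2, an isomerase found in mitochondria and peroxisomes, went from 183 ± 11.1 to 84.9 ± 9.64 CPM (SD, n = 4; -1.11 ± 0.08).

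The electron acceptors of the dehydrogenases fell together. Etfa, the alpha subunit of the electron transfer flavoprotein, was at 482, 497, 478 and 496 CPM in WT and at 200, 219, 190.4 and 216 CPM in Mst1-TG (-1.24 ± 0.07 SE, edgeR adjusted p = 3.2e-08). Its partner Etfb was at 493, 520.4, 497 and 491 CPM in WT and at 164, 174, 167 and 189.9 CPM in Mst1-TG (-1.53 ± 0.07, edgeR adjusted p = 7.3e-09). Both were separated between groups. Etfdh, which hands the electrons to ubiquinone, went from 473 ± 37.7 to 193 ± 12.4 CPM (SD, n = 4; -1.29 ± 0.08).

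**Figure D2:**
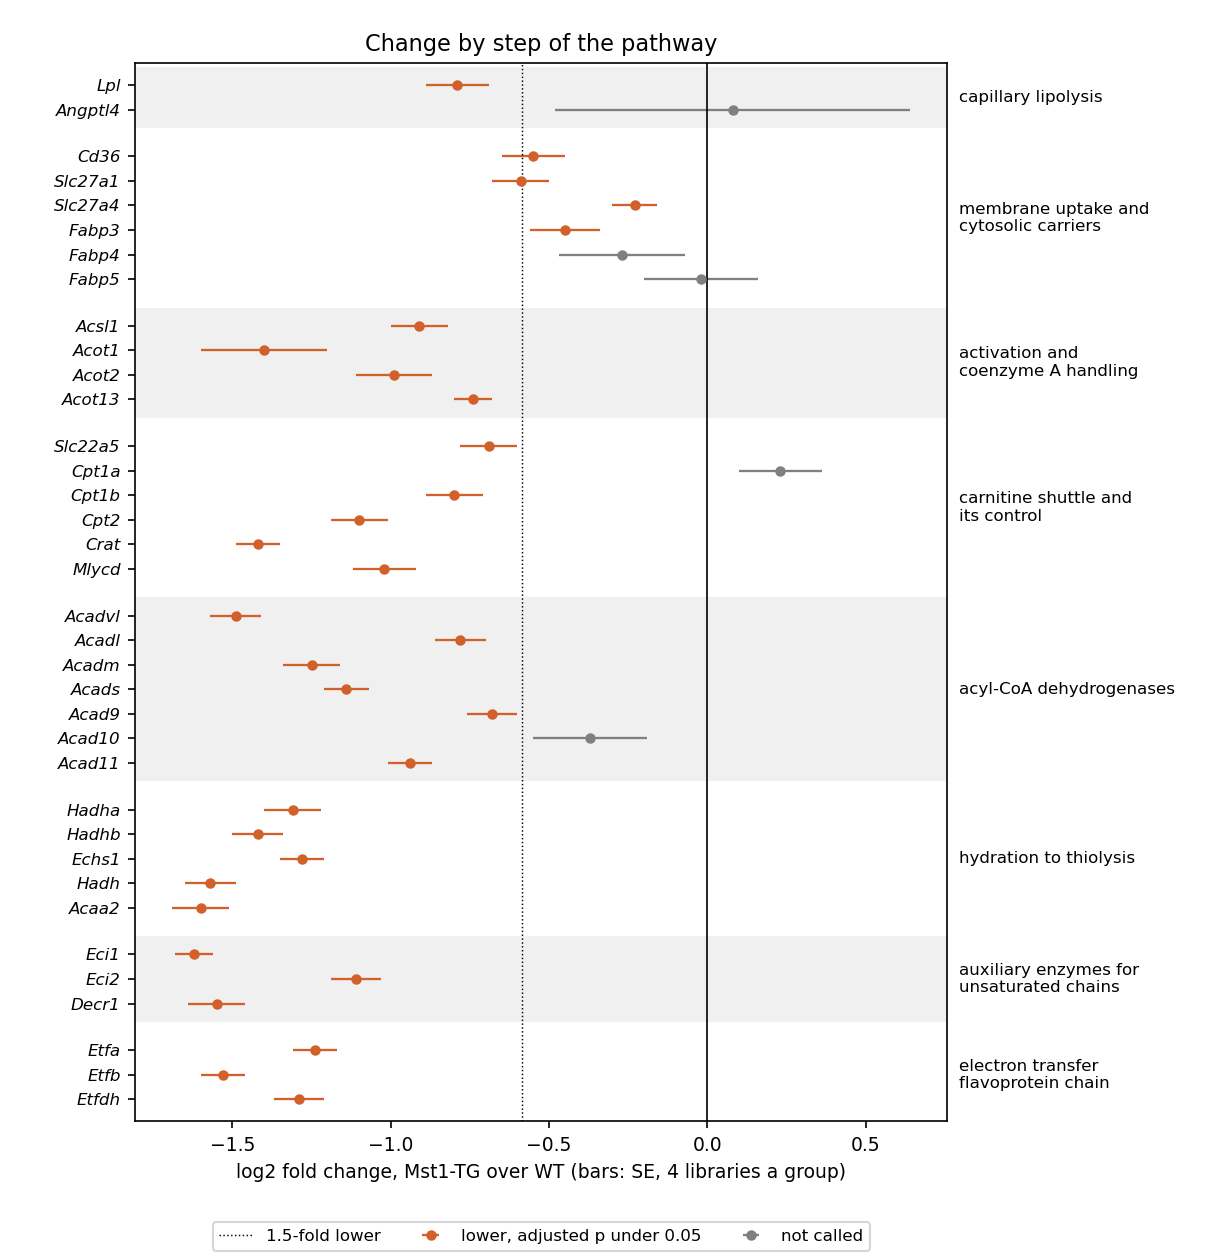
Log2 fold change of Mst1-TG over WT for the 36 tested genes (x axis) with SE bars, grouped by step; orange genes fell, grey genes were not called, and the dotted line marks a 1.5-fold fall. Changes range from -0.02 to -0.59 among the membrane uptake and cytosolic carrier genes and from -1.28 to -1.60 from hydration to thiolysis.

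Falls were of unequal size along the pathway, a difference between steps that was described and not tested. Tested against a minimum change of 1.5-fold (edgeR's glmTreat), 24 of the 36 genes were lower, against 5.54% of all genes tested. None of the 8 genes of lipolysis and uptake was among the 24, while all 11 genes of the last 3 steps, from hydration to electron transfer, were. The genes that fell but were not called beyond 1.5-fold were Lpl, Cd36, Slc27a1, Slc27a4, Fabp3, Slc22a5 and Acad9. The counts of the 37 genes divided differently over the steps in every library. Lipolysis and uptake took 35.9% to 38.3% of them in WT and 46.3% to 51.6% in Mst1-TG. Within that sum only the uptake and carrier genes were separated, since lipolysis took 10.2% to 12.5% in WT and 10.5% to 13.4% in Mst1-TG. The shares of activation (4.64% to 5.23% and 4.85% to 5.30%) and of the carnitine shuttle (6.80% to 7.59% and 6.95% to 7.40%) overlapped as well. The dehydrogenases through electron transfer took 50.2% to 51.4% in WT and 36.6% to 41.0% in Mst1-TG. These shares do not depend on how libraries are scaled. As a whole the 37 genes held 1.72% to 1.94% of all counts in WT and 0.998% to 1.24% in Mst1-TG, or 2.25% to 2.46% and 1.15% to 1.45% of the counts outside mitochondrially encoded genes.

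**Figure D3:**
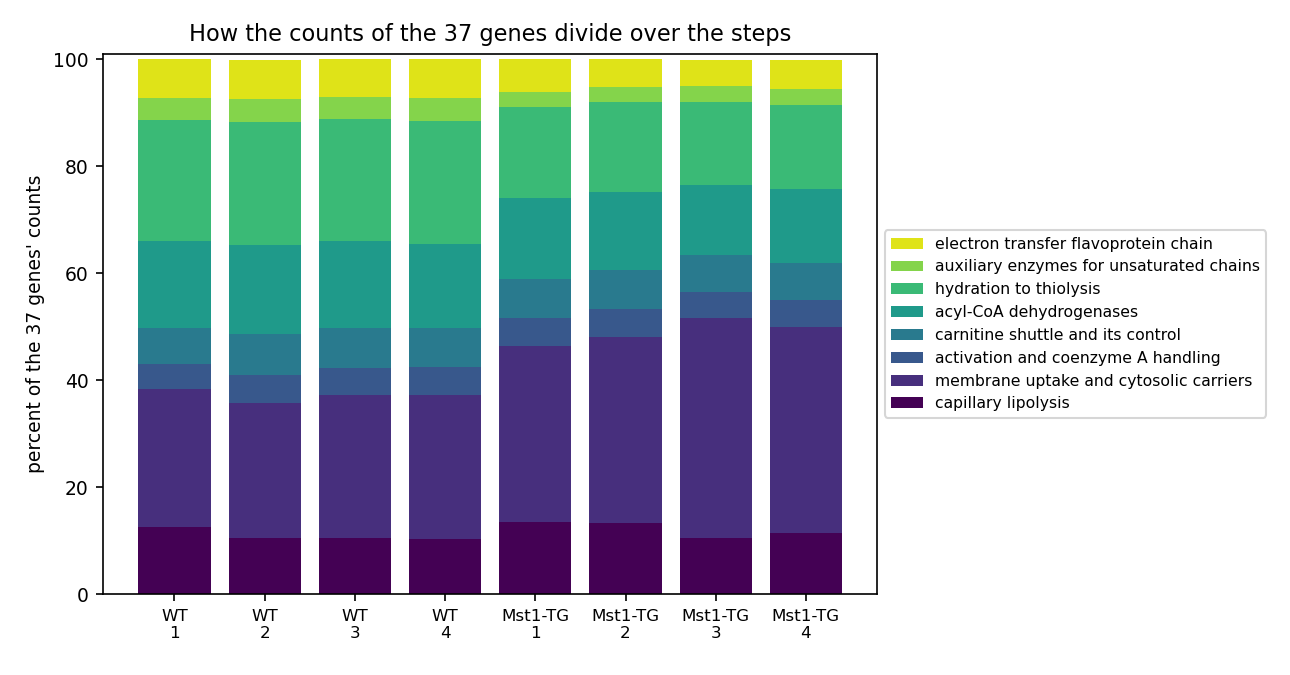
Share of the counts of the 37 genes (y axis, percent) that fell to each step, in each of the 8 libraries; each bar is 1 library and each colour 1 step. The uptake and cytosolic carrier band takes 25.4% to 27.1% in WT and 32.9% to 41.1% in Mst1-TG, and the band from hydration to thiolysis takes 22.6% to 23.1% and 15.5% to 17.0%.

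Ratios of paired genes within a library, which also do not depend on scaling, were compared for 10 pairs by a two-sided exact permutation test. With 4 against 4 libraries the smallest exact p is 0.0286, and 7 pairs reached it (exact p adjusted over the 10 pairs = 0.0408). The pairs were picked among genes that had been listed with earlier results of these data known. How often other pairs of genes would reach that p was not measured. The ratio of Cpt1a to Cpt1b counts was 0.136, 0.152, 0.158 and 0.169 in WT and 0.274, 0.292, 0.370 and 0.323 in Mst1-TG. Its geometric mean shifted 2.04-fold toward Cpt1a, and all 4 Mst1-TG libraries lay above all WT libraries. Among the dehydrogenases, Acadl over Acadm was 1.01 to 1.06 in WT and 1.34 to 1.54 in Mst1-TG, so the long-chain enzyme fell less. Eci1 over Eci2 went the other way, from 1.31 to 1.47 in WT and from 0.847 to 1.04 in Mst1-TG.

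Partners of 1 complex also shifted slightly. Etfa over Etfb was 0.956 to 1.01 in WT and 1.14 to 1.26 in Mst1-TG, a 1.22-fold change. Hadha over Hadhb was 0.896 to 0.944 in WT and 0.965 to 1.02 in Mst1-TG, a 1.08-fold change without overlap. Slc27a4 over Slc27a1 rose by 1.29-fold and Acot1 over Acot2 fell by 1.36-fold, the latter with the reservation on shared reads. Ratios of Fabp4 and Fabp5 to Fabp3 and of Angptl4 to Lpl overlapped between groups and did not pass (exact permutation adjusted p = 0.514, 0.143 and 0.286).

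**Figure D4:**
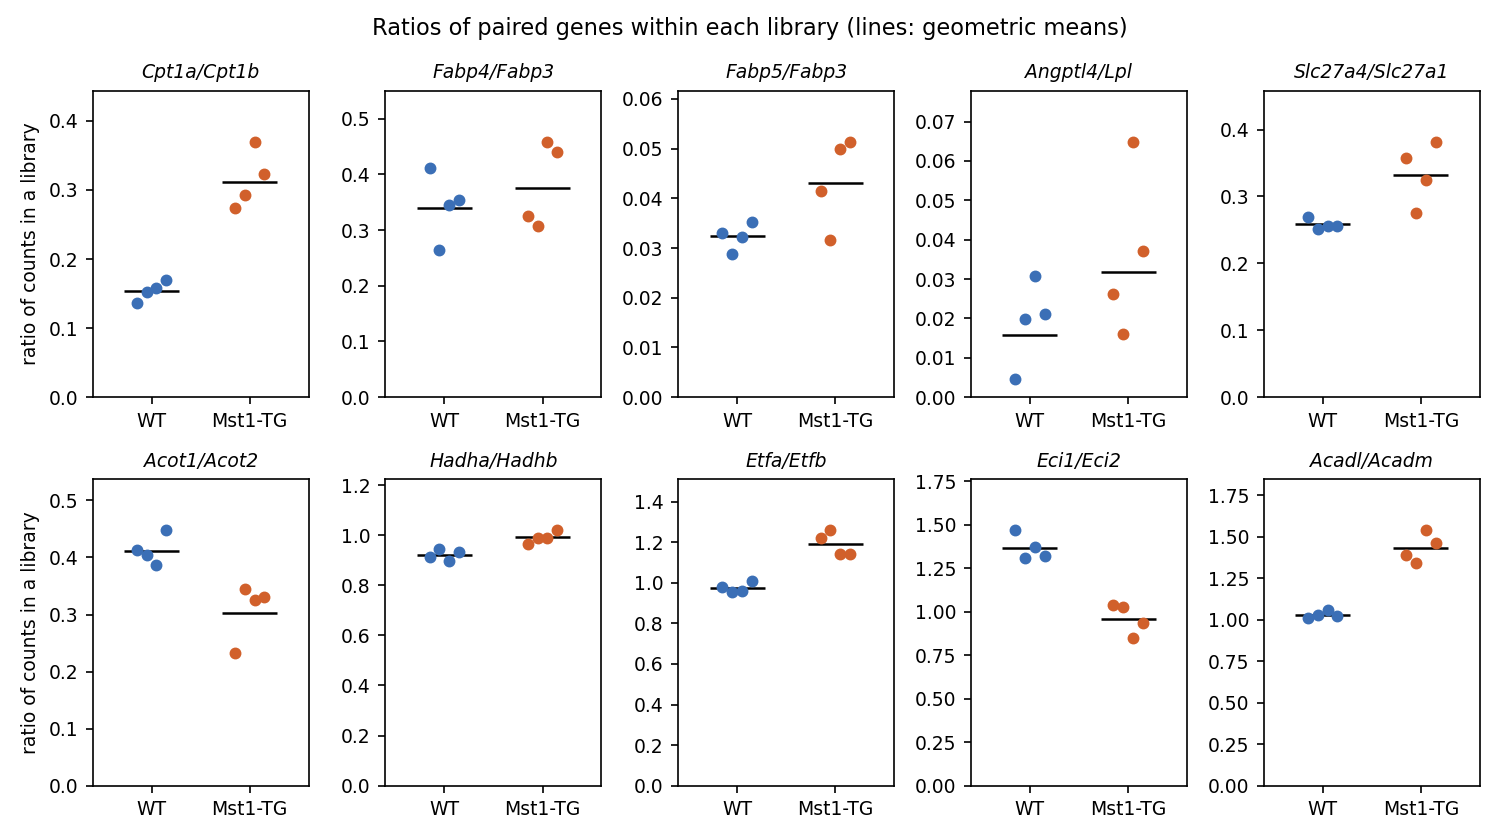
Ratio of counts of paired genes in each library (y axis, linear from 0) for the 10 pairs; blue points are WT, orange points Mst1-TG, and lines are geometric means of 4 libraries. In 7 panels the groups are apart, most widely for Cpt1a over Cpt1b, and in the panels of Fabp4/Fabp3, Fabp5/Fabp3 and Angptl4/Lpl they overlap.

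Per kilobase of the longest coding transcript in GENCODE M21, the order of levels changed as well. In WT the 5 highest genes were Fabp3 (3144 CPM per kilobase), Fabp4 (984), Hadhb (737), Acaa2 (581) and Etfb (560.4). The SD ranges of Acaa2 (SD 15.6) and Etfb (SD 15.2) overlapped, as did those of Etfb and the next gene, Lpl (525, SD 39.3), so the order of these 3 is not settled. In Mst1-TG they were Fabp3 (2294 CPM per kilobase), Fabp4 (816), Cd36 (325), Lpl (303) and Acadl (290.5), so carriers and lipolysis stood above the thiolase and the flavoprotein. In Mst1-TG the SDs of neighbouring levels overlapped from Cd36 down to Hadhb (276). The scarcest tested gene was Acad10 in both groups, at 1.11 and 0.860 CPM per kilobase.

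How many of the genes were called lower depended on the reference level, in uptake and in other steps. Scaled by library totals alone, the log2 fold changes of all genes had a median of 0.29, and 29 of the 36 genes were lower (10.4% of all genes tested) and 1, Cpt1a, was higher (48.4%). Fabp3 (-0.17) no longer passed, and Slc27a4 turned to 0.05. When libraries were scaled to the summed level of the 7 cardiomyocyte markers, an alternative chosen after seeing the data, the median of all genes was 0.55. On that scale 22 of the 36 genes were lower, against 5.20% of all genes tested, and Cpt1a (0.76, edgeR adjusted p = 6.6e-04) and Slc27a4 (0.30, adjusted p = 0.042) were higher, against 63.8%. Relative to those markers Cd36 was at -0.01, Slc27a1 at -0.06 and Fabp3 at 0.08, none of which passed, while Lpl still fell (-0.27, edgeR adjusted p = 0.034). Outside uptake, 5 more calls were lost on that scale: Cpt1b (-0.27, edgeR adjusted p = 0.057), Acadl (-0.24, adjusted p = 0.077), Acot13 (-0.21), Slc22a5 (-0.16) and Acad9 (-0.15). All genes of the last 3 steps were still called lower on both scales. As 5 of these 7 markers themselves fell, this scale is a comparison with those genes and not a count of cells.

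Within a group, the same libraries tended to be low or high across the genes of the pathway. Mst1-TG 1 was the lowest of its group in 26 of the 36 genes and Mst1-TG 2 the highest in 22. Among WT, WT 1 was lowest in 21 and WT 4 highest in 16. The summed level of the 36 genes was 9045 CPM in Mst1-TG 1 and 10885 to 11522 CPM in the other transgenic libraries, against 19367 to 20673 CPM in WT. Mst1-TG 1 also had the highest sum of fibroblast markers, 6088 CPM, and the lowest of endothelial markers. Its sum of cardiomyocyte markers, 29566 CPM, was not the lowest: Mst1-TG 2 to 4 had 34822, 25805 and 28437 CPM. Among WT, the cardiomyocyte sum was highest in WT 1, at 45595 CPM, and lowest in WT 4, at 37775 CPM. Leaving out Mst1-TG 1 kept the count of lower genes at 31 and gave a median of -0.94, and leaving out WT 4 gave 31 and -0.98.

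Other genes of fatty acid metabolism and of related mitochondrial oxidation were counted from lists of related enzymes. All 17 tested genes of other mitochondrial oxidation fell, with a median of -0.87, beside 21.1% of all genes tested. This list also holds genes of amino acid breakdown, so its count is not one of fatty acid oxidation alone. Ech1, an isomerase for dienes, went from 1200.4 ± 66.0 to 333 ± 53.0 CPM (SD, n = 4; -1.85 ± 0.11 SE, edgeR adjusted p = 4.8e-08), a deeper fall than in any of the 37 genes. The thiolase Acat1 changed by -1.19 ± 0.08, and Ivd and Gcdh, dehydrogenases of amino acid breakdown that feed the same flavoprotein, by -1.30 ± 0.10 and -1.31 ± 0.09. In peroxisomes, which shorten chains that mitochondria handle poorly, 10 of 15 genes fell and 5 did not pass, with a median of -0.43. Over all genes tested, 21.1% fell. Phyh, for branched chains, fell by 1.23, the racemase Amacr by 0.81, the importer Abcd3 by 0.60 and the thiolase Scp2 by 0.51 on the log2 scale. Scaled to cardiomyocyte markers, Amacr and Abcd3 did not pass and Scp2 was at 0.03.

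Genes around the carnitine shuttle were called in both directions, with 3 of 7 lower and 2 higher, beside 21.1% and 21.2% of all genes tested. Slc25a20, which carries acylcarnitine across the inner membrane, went from 168 ± 11.0 to 81.9 ± 11.5 CPM (-1.04 ± 0.10 SE, edgeR adjusted p = 1.8e-06), and Acacb, which makes malonyl-CoA at the mitochondrion, from 373 ± 10.5 to 176 ± 29.8 CPM (-1.08 ± 0.10). Thus Acacb, which makes malonyl-CoA, and Mlycd, which destroys it, both fell. Acaca, a second gene for making malonyl-CoA, did not pass (0.22 ± 0.11, edgeR adjusted p = 0.136). It went from 15.9 ± 2.47 to 18.5 ± 1.57 CPM, with overlapping groups. The transporter Slc22a4 (OCTN1), whose gene lies near Slc22a5 on chromosome 11, rose from 2.55 ± 0.248 to 10.2 ± 2.08 CPM (2.00 ± 0.17, edgeR adjusted p = 6.4e-07). Cpt1c, a form known from neurons, rose from 4.48 ± 0.200 to 7.21 ± 0.656 CPM (0.69 ± 0.12).

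Among 17 other tested genes of uptake and activation 7 fell and 5 rose, beside 21.1% and 21.2% of all genes tested, so the count of higher genes was near the background. Got2, the mitochondrial aspartate aminotransferase that has also been described as a membrane fatty acid binding protein, changed by -0.82 ± 0.09 (SE) and the triglyceride lipase Pnpla2 by -0.85 ± 0.10. The lipoprotein receptor Lrp1 rose by 1.01 ± 0.07, and the scarce synthetase Acsl6 went from 2.45 ± 0.462 to 0.312 ± 0.143 CPM. Of 6 other thioesterases 4 fell and 1 rose, beside 21.1% and 21.2% of all genes tested. Acot9 rose by 0.66 ± 0.07, while Acot11 changed by -0.90 ± 0.11 and Acot7 by -0.45 ± 0.07. Acot11 did not pass when scaled to cardiomyocyte markers, and Acot7 passed neither there (0.10) nor with library totals. Acot3, also counted among the 4 that fell, belongs with Acot1 and Acot2 to a cluster of close copies. It changed by -3.44 ± 0.38 at a low level, from 2.42 ± 0.782 CPM in WT to 0.217 ± 0.0838 CPM in Mst1-TG. Acot3 and the scarce Acsl6 passed the count filter through their WT libraries, where they were higher. Their falls therefore rest on few Mst1-TG counts and on the direction that the filter favoured. Of 23 regulators 14 fell, 2 rose and 7 did not pass, where 21.1% of all genes tested fell and 21.2% rose. The 7 that did not pass were Rxrb, Esrrb, Esrrg, Med1, Prkaa1, Prkag2 and Pdk4. Esrrb was at -0.29 ± 0.14 and Esrrg at -0.12 ± 0.10 (SE). Pdk4 ranged from 258 to 1431 CPM in WT (-0.39 ± 0.48, edgeR adjusted p = 0.572). Ppargc1a and the receptor Ppara were among those that fell, though not among the 4 with the smallest p. Ppargc1a went from 183 ± 58.0 to 53.9 ± 10.8 CPM (-1.76 ± 0.25 SE, edgeR adjusted p = 6.9e-04). Ppara went from 31.4 ± 6.53 to 12.3 ± 2.81 CPM (-1.35 ± 0.19, edgeR adjusted p = 2.3e-04). Rxrg, a partner receptor of the PPARs, went from 54.2 ± 2.73 to 13.5 ± 1.61 CPM (-2.0 ± 0.09, edgeR adjusted p = 5.7e-09), the lipin Lpin1 changed by -1.19 ± 0.12 and the receptor Esrra by -0.61 ± 0.07, which did not pass when scaled to cardiomyocyte markers. Prkab2, a subunit of AMP-activated protein kinase, rose by 1.06 ± 0.06.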

How the data were processed

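RNA-seq was done on 8 left ventricle libraries (200 ng of total RNA, depleted of ribosomal RNA, directional kit), per the labels' protocols. The authors deposited estimated counts per gene, made with kallisto 0.46.0 after bcl2fastq 2.19.1.403 according to the submitters' processing notes. Build, annotation and strand setting: not given in the sources used here. In GENCODE M21, 15 of the 37 genes overlap another annotated gene, so their reads may be shared. The values are whole numbers, so rounding changed nothing.

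The 37 genes and the other lists (6 of pathway genes, 6 of cell type markers, up to 4 genes named from each pathway list by smallest p) were chosen with earlier results of these data known. Ppargc1a, Ppara, Acaca and the 7 regulators that did not pass were named in addition. The edgeR package (4.0.16, under R 4.3.3) was used: filterByExpr (minimum count 10, total 15; 15314 genes kept), TMM, robust quasi-likelihood F test on group alone, Benjamini-Hochberg adjustment, threshold 0.05. SE is the fold change over the root of F; the median SE over all genes was 0.111. Ratios used counts plus 0.5 and exact permutation. Fold changes are Mst1-TG over WT. Alternatives were other scalings, no filter, DESeq2 1.42.0, a replicate block, a 1.5-fold minimum and leaving out each library. Every replicate pair differed beyond sampling noise (chi-square over its degrees of freedom 7.92 to 23.4). The labels do not say that libraries came from separate animals, and p-values then reflect only the spread among libraries, which may be technical. On simulated counts (15162 genes), 94% of 2-fold and 75% of 1.5-fold changes were recovered, and 3.43% of calls were false. Only 100 genes were changed at each fold there, up and down alike, with a common dispersion and no shift in library composition. In the data far more genes were called and the mitochondrial share differed, so these rates do not carry over to this comparison.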

Additional observations from a re-analysis of the deposited data

Results flagged for a closer look

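Each of the 37 genes was screened for a library far from the other 3 of its group, and 9 values in 74 groups of 4 stood out, where chance flags about 1 in 20. Mst1-TG 1 was low in Acot1 (7.99 CPM, others 14.8 to 15.5) and in Mlycd (53.1 CPM, others 69.2 to 69.9). WT 1 was low in Mlycd (114 CPM, others 138 to 139), Acad9 (46.9 CPM, others 52.4 to 53.3) and Hadhb (1398 CPM, others 1532 to 1558), and high in Lpl (2402 CPM, others 2059 to 2105). Mst1-TG 3 was low in Acad9 (28 CPM, others 33.4 to 33.7). WT 2 was high in Acad11 (85.5 CPM, others 77.9 to 78.4) and in Eci1 (256 CPM, others 248 to 249). The 7 genes named here stayed lower in Mst1-TG whichever single library was left out.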

How the results depend on the processing

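The count of 31 lower genes was the same with DESeq2 size factors, TMM without mitochondrial and top genes, no filter, DESeq2, the replicate block and without any 1 library; it was 29 with library totals, 22 scaled to cardiomyocyte markers and 24 for a 1.5-fold minimum. The median of -1.01 became -0.72 with library totals and -0.47 scaled to cardiomyocyte markers. The count of higher genes, 0 in the main analysis and 0 to 1 over the analyses that leave out 1 library, was 1 with library totals, without a filter and with the replicate block (Cpt1a each time), and 2 scaled to cardiomyocyte markers. Same-numbered libraries shared only a number (their deviations correlated at -0.142 to 0.0746, and 0 WT libraries correlated best with their own number). The replicate block left 31 genes lower and called Cpt1a (0.22, edgeR adjusted p = 0.021). Ppargc1a, Ppara, Acaca and the 7 regulators that did not pass were not followed through the alternatives. The block ended no call among the other genes named. Under that pairing the ratios could not go below an exact p of 0.125. Direction turned with library totals for Slc27a4 (0.05), Fabp4 (0.02) and Fabp5 (0.27). Scaled to cardiomyocyte markers it turned for Slc27a4 (0.30), Fabp3 (0.08), Fabp4 (0.29), Fabp5 (0.54), Acad10 (0.17), Scp2 (0.03) and Acot7 (0.10). Among genes that were not called, leaving out 1 library gave -0.26 to 0.40 for Angptl4 and -0.15 to 0.10 for Fabp5. The cause was not tested. Counts were lowest for Vnn1 (0 to 8 per library, not tested).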
